A study of Mus musculus with 7 samples.

Results

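Polycomb repressive complex 2 (PRC2) and the enzymes that maintain DNA methylation are the 2 machineries described here. They were measured in C2C12, a line of mouse myoblasts, muscle precursors that divide in culture and differentiate when growth factors are withdrawn. The members were chosen by gene symbol as 10 named genes, and all 10 had a row of their own among the 13376 rows of the table. The study compared 2 libraries of proliferating cells treated with lnc-31 siRNA (si-lnc-31, against the long noncoding RNA lnc-31) with 2 libraries of proliferating cells treated with scrambled siRNA (si-scr). A second experiment recovered RNA from C2C12 cells with biotinylated antisense probes specific for lnc-31 (ODD), against lacZ probes as the aspecific control, with 1 library each. RNA of the siRNA libraries is given in FPKM, a fragment count corrected for the length of the transcript and for how many fragments of that library mapped.

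PRC2 writes methylation on lysine 27 of histone H3, a mark of silenced genes. EZH1 or EZH2 carries the catalytic site, SUZ12 and EED hold the complex together and are needed for its activity, and RBBP4 and RBBP7 are closely related histone-binding subunits that also sit in other chromatin complexes. EZH2 is known for dividing precursors, where it keeps muscle genes silent, and EZH1 for cells that have left the cycle. DNMT1 copies DNA methylation onto the new strand after replication, UHRF1 recognises the half-methylated site and brings DNMT1 there, and DNMT3A and DNMT3B set methylation on unmethylated DNA.

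The 4 libraries had no read depth in these files, so precision comes from the spread between libraries. Library lnc-31 siRNA 1 stood apart from the other 3 on the first principal component (score 39.1, against -16.3 to -10.4). Library scrambled siRNA 2 stood apart in the mitochondrial gene mt-Nd2, at 395110 FPKM against 2876 to 3401 FPKM elsewhere. Summed FPKM ran from 1515600 in scrambled siRNA 1 to 2466000 in scrambled siRNA 2. No row is named lnc-31, and the row that names Mir31, the microRNA of that locus, was at 13.1 ± 1.40 FPKM in libraries labelled lnc-31 siRNA and 14.5 ± 1.58 FPKM in scrambled siRNA libraries (SD, n = 2 each; limma log2 fold change -0.14, adjusted p = 0.38). A fall of the target was therefore not shown, so directions are given throughout for the libraries by their label. The labels leave unsaid whether the 2 libraries per group were separate cultures, and p-values cover only the spread between these libraries, which may be technical. The cells carried myoblast markers, with 5 of 5 measured and a summed level of 429 and 440 FPKM in libraries labelled lnc-31 siRNA, against 360 and 364 FPKM in scrambled siRNA libraries. Des alone held 202 and 209 FPKM of the sums with lnc-31 siRNA, and 175 and 172 FPKM of those with scrambled siRNA. By limma 4 of the 5 were called higher. Myf5 did not pass and lay lower, at 35.2 and 35.4 FPKM with lnc-31 siRNA, against 38.6 and 37.5 FPKM with scrambled siRNA. Of 4 adipocyte markers only Pparg had a row, at 10.1 and 9.47 FPKM with lnc-31 siRNA, against 11.4 and 10.2 FPKM with scrambled siRNA. Of 5 blood, endothelial and epithelial markers only Krt8 had a row, at a highest value of 0.540 FPKM.

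All 10 genes were expressed, across a wide range of levels. Rbbp7 was the most abundant message, at 178 ± 1.31 FPKM in libraries labelled lnc-31 siRNA and 189.4 ± 0.375 FPKM in scrambled siRNA libraries, which put it at percentile 95.9 of the 11500 tested rows. Below it in both groups came Rbbp4, Uhrf1, Suz12, Ezh2, Dnmt1, Eed, Ezh1, Dnmt3a and Dnmt3b in that order. Dnmt3b, at percentile 2.23, was the scarcest. Neighbours in this order did not overlap in FPKM in either group, with 1 exception. In scrambled siRNA libraries Ezh2 (34.3 and 36.5 FPKM) and Dnmt1 (34.9 and 34.7 FPKM) overlapped. In libraries labelled lnc-31 siRNA Dnmt1 lay below Ezh2, at 29.3 and 29.0 FPKM against 34.1 and 34.6 FPKM.

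**Figure D1:**
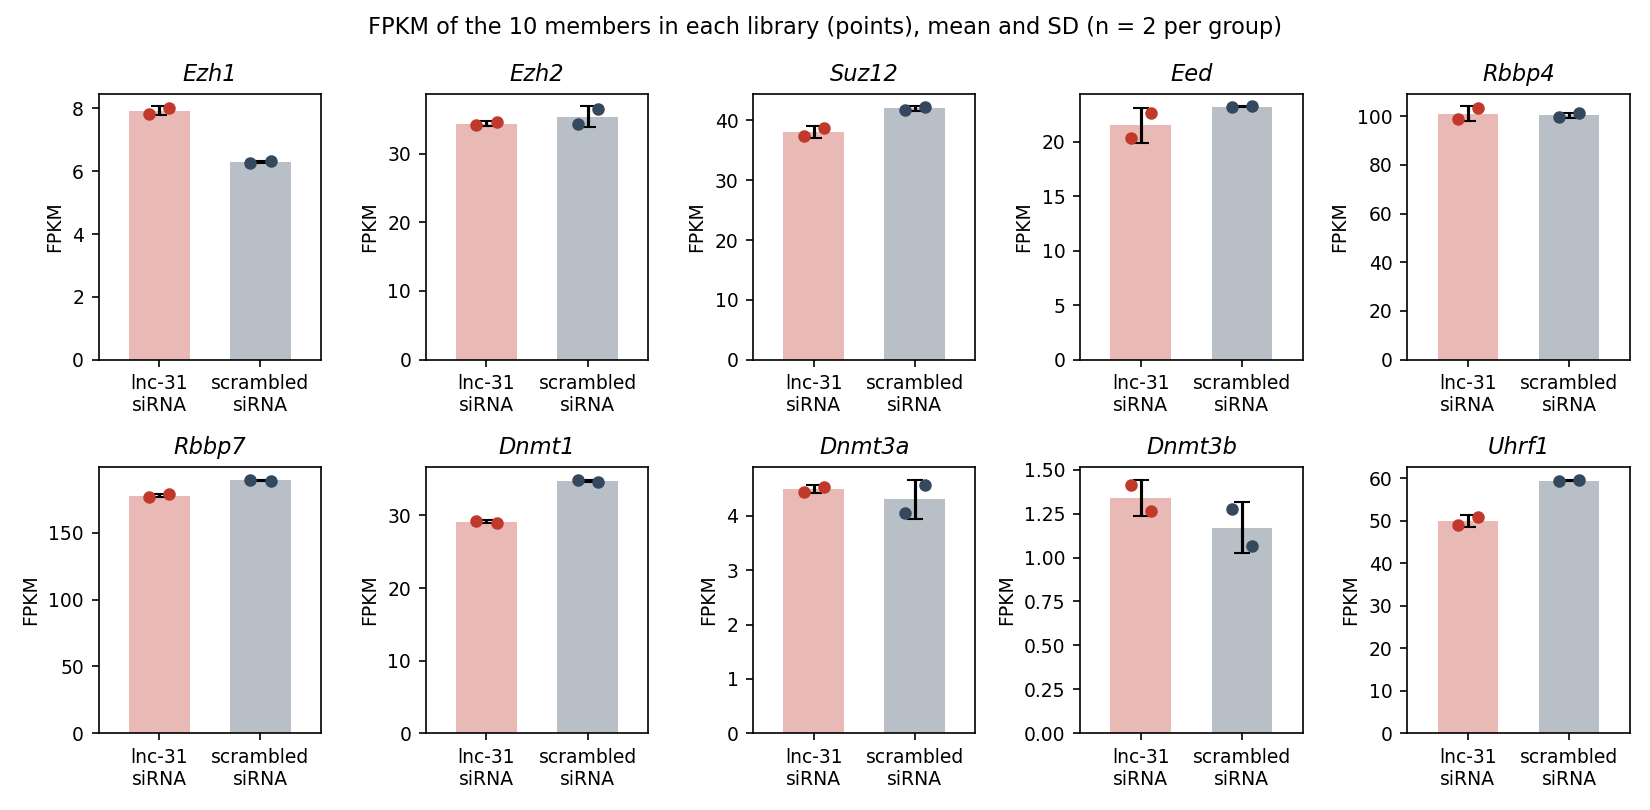
Each panel plots the FPKM of 1 gene, with a point for each library, a bar for the group mean and an error bar for the SD (n = 2), and libraries labelled lnc-31 siRNA to the left of scrambled siRNA libraries. The points of Ezh1 lie higher with lnc-31 siRNA (7.82 and 8.03 FPKM, against 6.27 and 6.31 FPKM), those of Dnmt1 and Uhrf1 lie lower, and those of Ezh2, Rbbp4, Dnmt3a and Dnmt3b overlap between the groups.

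Over the whole set, 3 of 10 genes passed limma's test across all rows at an adjusted p of 0.05, 1 higher (Ezh1) and 2 lower (Dnmt1 and Uhrf1). Among all 11500 tested rows 12.4% passed, 5.64% higher and 6.78% lower. The groups did not overlap in 6 of the 10 genes, 1 higher and 5 lower, against 60.2% of all tested rows (28.5% higher, 31.7% lower), so that share is near the background. The median log2 fold change of the 10 was -0.07, beside -0.01 over all tested rows.

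**Figure D2:**
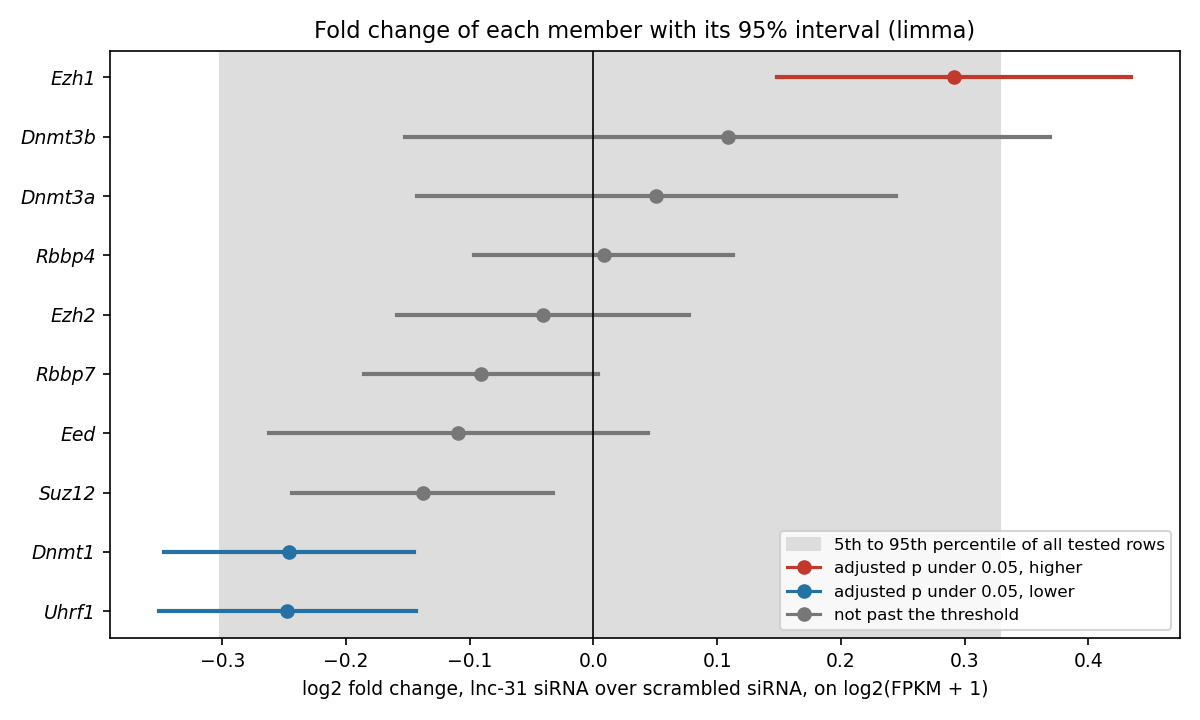
Points are limma log2 fold changes of the 10 genes on the log2(FPKM + 1) scale, libraries labelled lnc-31 siRNA over scrambled siRNA libraries, and lines are 95% intervals. Grey shading spans the 5th to 95th percentile of all tested rows (-0.30 to 0.33), and all 10 points lie inside it, with Ezh1 at 0.29 the highest and Uhrf1 and Dnmt1 at -0.25 the lowest.

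Both genes of maintenance methylation fell. Dnmt1 was at 29.3 and 29.0 FPKM in libraries labelled lnc-31 siRNA, against 34.9 and 34.7 FPKM in scrambled siRNA libraries. Both libraries labelled lnc-31 siRNA were lower than both scrambled siRNA libraries, and the log2 fold change was -0.25 (SE 0.041, limma adjusted p = 0.022), and the mean level fell by 16.1%. Uhrf1, the factor that brings DNMT1 to replicated DNA, was at 48.95 and 51.0 FPKM in libraries labelled lnc-31 siRNA, against 59.3 and 59.6 FPKM in scrambled siRNA libraries. Its groups did not overlap either, and its log2 fold change was also -0.25 (SE 0.042, limma adjusted p = 0.023). Both genes kept their direction with each library left out, but neither passed then. Without lnc-31 siRNA 1, lnc-31 siRNA 2, scrambled siRNA 1 and scrambled siRNA 2, limma's adjusted p was 0.077, 0.086, 0.10 and 0.096 for Dnmt1 and 0.087, 0.060, 0.10 and 0.11 for Uhrf1.

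The de novo methyltransferases were scarce and did not pass. Dnmt3a was at 4.44 and 4.54 FPKM in libraries labelled lnc-31 siRNA, against 4.05 and 4.56 FPKM in scrambled siRNA libraries. Dnmt3b was at 1.41 and 1.26 FPKM in libraries labelled lnc-31 siRNA, against 1.27 and 1.07 FPKM in scrambled siRNA libraries. In both genes the groups overlapped. The 95% interval of the log2 fold change ran from -0.14 to 0.24 for Dnmt3a and from -0.15 to 0.37 for Dnmt3b. A percent change equal to the fall of Dnmt1 would be -0.20 on the log2(FPKM + 1) scale at the level of Dnmt3a, outside its interval, and -0.13 at the level of Dnmt3b, inside its interval. One equal to the rise of Ezh1 would be 0.28 for Dnmt3a, also outside, and 0.19 for Dnmt3b, also inside. These comparisons took the point estimates of Dnmt1 and Ezh1 as exact. The 95% intervals of those genes ran from -0.35 to -0.15 and from 0.15 to 0.43. An equal percent change in Dnmt3a is therefore not excluded.

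Of the 2 catalytic subunits of PRC2, Ezh1 rose and Ezh2 did not pass. Ezh1 stood at 7.82 and 8.03 FPKM in libraries labelled lnc-31 siRNA, against 6.27 and 6.31 FPKM in scrambled siRNA libraries. The groups were well apart, with a log2 fold change of 0.29 (SE 0.057, limma adjusted p = 0.034) and a mean level that was 26.0% higher. Ezh2 stood at 34.1 and 34.6 FPKM in libraries labelled lnc-31 siRNA, against 34.3 and 36.5 FPKM in scrambled siRNA libraries. Its groups overlapped, and its log2 fold change was -0.04 with a 95% interval from -0.16 to 0.08 (limma adjusted p = 0.61). The call of Ezh1 was lost with each library left out, at a limma adjusted p of 0.10 without lnc-31 siRNA 1, 0.13 without lnc-31 siRNA 2, 0.12 without scrambled siRNA 1 and 0.12 without scrambled siRNA 2, while its log2 fold change ran from 0.27 to 0.31.

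The balance of these paralogs was therefore compared within each library. Ezh2 exceeded Ezh1 by ratios of 4.37 and 4.31 in libraries labelled lnc-31 siRNA, against 5.48 and 5.78 in scrambled siRNA libraries. The mean log2 ratio differed by -0.37, which is larger than the SD between libraries of either group (0.012 with lnc-31 siRNA and 0.055 with scrambled siRNA). The exact two-sided permutation p was 0.333, the smallest that 6 splits of 4 libraries allow. Ezh1 made up 18.6% and 18.8% of the summed Ezh1 and Ezh2 FPKM in libraries labelled lnc-31 siRNA, against 15.4% and 14.7% in scrambled siRNA libraries. The sum itself, 42.0 and 42.7 FPKM with lnc-31 siRNA, lay within the range of the scrambled siRNA libraries (40.6 and 42.8 FPKM).

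**Figure D3:**
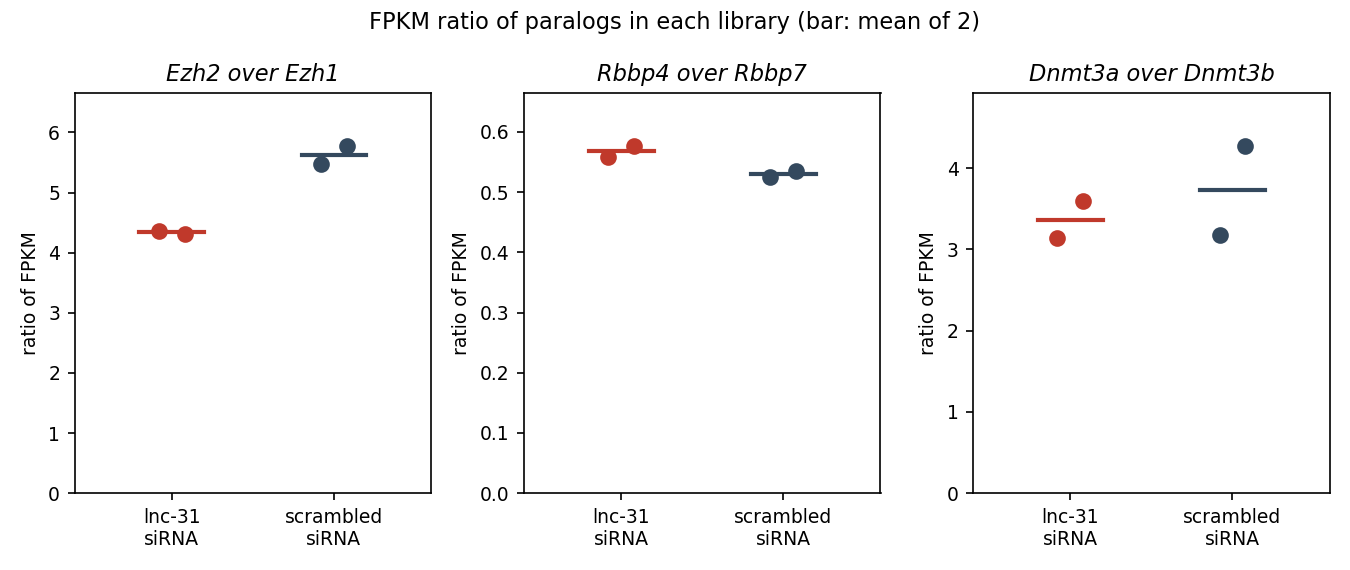
Each panel plots the ratio of FPKM of 2 paralogs in each library (points) with the group mean (bar), libraries labelled lnc-31 siRNA to the left. Ezh2 over Ezh1 is lower with lnc-31 siRNA (4.37 and 4.31, against 5.48 and 5.78), Rbbp4 over Rbbp7 is slightly higher (0.558 and 0.577, against 0.525 and 0.535), and Dnmt3a over Dnmt3b overlaps.

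The remaining PRC2 subunits did not pass. Suz12 came nearest, at 37.4 and 38.8 FPKM in libraries labelled lnc-31 siRNA, against 41.8 and 42.3 FPKM in scrambled siRNA libraries (log2 fold change -0.14, limma adjusted p = 0.092). Eed, which binds the finished mark, was at 20.3 and 22.6 FPKM in libraries labelled lnc-31 siRNA, against 23.2 and 23.2 FPKM in scrambled siRNA libraries (-0.11, adjusted p = 0.29). The value of Eed moved to -0.035 without lnc-31 siRNA 1 and to -0.18 without lnc-31 siRNA 2. In both genes the libraries labelled lnc-31 siRNA lay below the scrambled siRNA libraries, and the 95% interval excluded 0 for Suz12 (-0.24 to -0.03) but not for Eed (-0.26 to 0.04). Eed differed more between the 2 libraries labelled lnc-31 siRNA (SD 1.64 FPKM) than between the scrambled siRNA libraries (SD 0.038 FPKM).

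Neither gene of the abundant histone-binding pair passed. Rbbp7 was at 177 and 179 FPKM in libraries labelled lnc-31 siRNA, against 189.7 and 189.1 FPKM in scrambled siRNA libraries, without overlap (log2 fold change -0.09, 95% interval -0.19 to 0.0040, limma adjusted p = 0.18). Rbbp4 was at 98.8 and 103.2 FPKM in libraries labelled lnc-31 siRNA, against 99.6 and 101.1 FPKM in scrambled siRNA libraries, with overlap (log2 fold change 0.01, 95% interval -0.10 to 0.11, limma adjusted p = 0.92). The log2 ratio of Rbbp4 over Rbbp7 was 0.10 higher with lnc-31 siRNA, with an exact two-sided permutation p of 0.333, again the smallest possible. For Dnmt3a over Dnmt3b the log2 ratio differed by -0.13 (exact p = 0.667), less than the SD in either group (0.14 with lnc-31 siRNA and 0.30 with scrambled siRNA). The spans of Rbbp4 and Rbbp7 overlap those of Sync and Txlng, which have rows of their own, and none of the sources used here states whether counting used strand.

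Because Dnmt1, Uhrf1 and other genes of DNA replication are known targets of the E2F factors of the cell cycle, the promoters were searched for E2F letters. RefSeq windows (build GRCm38.p6, 250 bases before to 50 after a start) were found for 10 of 10 genes, 15 windows in all. The letters searched on both strands were TTTCCCGC, TTTCGCGC, TTTGCCGC and TTTGGCGC. They stood in 4 of the 15 windows, 1 each of Uhrf1, Dnmt1, Suz12 and Ezh2, and no 2 matches overlapped. Over all 32851 windows, of genes expressed here or not, the share was 2.26%. Counted by gene, a match stood in 4 of the 10 members, against 409 of 8175 tested genes with a window (5.0%). The 4 windows with a match, and that of Ezh1, which had none, are shown 5′ to 3′ on the gene's strand, with matches in capitals.
Uhrf1, chr17:56304063-56304362, plus strand: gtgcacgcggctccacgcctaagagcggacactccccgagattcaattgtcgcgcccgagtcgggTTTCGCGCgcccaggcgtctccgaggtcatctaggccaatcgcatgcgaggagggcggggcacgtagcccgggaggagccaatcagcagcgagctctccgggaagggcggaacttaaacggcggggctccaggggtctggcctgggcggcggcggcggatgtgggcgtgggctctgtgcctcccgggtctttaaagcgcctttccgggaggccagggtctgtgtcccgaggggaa
Dnmt1, chr9:20952574-20952873, minus strand: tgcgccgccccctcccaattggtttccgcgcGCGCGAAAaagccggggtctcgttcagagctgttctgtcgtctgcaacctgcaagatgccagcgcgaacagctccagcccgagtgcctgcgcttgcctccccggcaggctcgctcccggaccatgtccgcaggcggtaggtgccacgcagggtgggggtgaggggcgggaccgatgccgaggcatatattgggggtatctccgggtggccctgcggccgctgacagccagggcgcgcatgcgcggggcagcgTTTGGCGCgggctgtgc
Suz12, chr11:79992856-79993155, plus strand: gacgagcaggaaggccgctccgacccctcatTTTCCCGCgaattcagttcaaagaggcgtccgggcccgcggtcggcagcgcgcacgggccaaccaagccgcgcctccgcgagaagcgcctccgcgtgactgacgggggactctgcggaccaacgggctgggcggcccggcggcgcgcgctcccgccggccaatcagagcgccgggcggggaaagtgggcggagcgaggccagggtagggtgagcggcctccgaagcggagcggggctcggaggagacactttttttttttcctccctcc
Ezh2, chr6:47594981-47595280, minus strand: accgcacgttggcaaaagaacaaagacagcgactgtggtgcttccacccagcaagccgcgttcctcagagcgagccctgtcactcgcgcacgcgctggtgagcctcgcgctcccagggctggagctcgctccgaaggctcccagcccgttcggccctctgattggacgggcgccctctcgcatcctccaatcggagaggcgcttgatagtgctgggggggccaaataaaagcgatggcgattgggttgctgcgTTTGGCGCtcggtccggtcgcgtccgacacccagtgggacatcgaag
Ezh1, chr11:101226414-101226713, minus strand: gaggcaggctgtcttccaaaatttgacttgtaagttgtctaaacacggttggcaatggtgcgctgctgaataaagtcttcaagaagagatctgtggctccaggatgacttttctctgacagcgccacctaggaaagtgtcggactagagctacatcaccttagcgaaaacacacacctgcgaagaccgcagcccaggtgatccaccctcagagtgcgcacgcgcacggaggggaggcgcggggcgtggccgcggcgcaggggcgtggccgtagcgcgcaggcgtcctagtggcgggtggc

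The match of Uhrf1 lay at positions 66 to 73 of the window and that of Suz12 at 32 to 39, both before the start. Dnmt1 had 2, at positions 32 to 39 on the opposite strand and at 284 to 291, after the start. The match of Ezh2 lay at 254 to 261, just after the start. So the 4 genes with these letters were the pair that fell and a pair that did not pass, and the 6 without them were the gene that rose and 5 that did not pass (Eed, Rbbp4, Rbbp7, Dnmt3a and Dnmt3b). Among tested genes with a window, a match stood in 44 of 552 (7.97%) that were called lower, 15 of 458 (3.28%) that were called higher and 350 of 7165 (4.88%) that were not called. CpG dinucleotides, the sites that DNMT enzymes methylate, numbered 33 in these windows of Uhrf1 and Dnmt1. They numbered 41 in that of Suz12, 31 in that of Ezh2 and 23 in that of Ezh1. The median was 7 over all windows, of genes expressed here or not, so this background is unlike the members, which were all expressed. The remaining genes, without a match, held 39 (Rbbp4), 38 (Rbbp7), 30 (Dnmt3b) and 17 (Eed), and the windows of Dnmt3a held 46, 47 and 18. The other windows of Dnmt1 held 2 and 12 and that of Uhrf1 held 12, and the windows shown were picked for letters that themselves hold a CpG. A match is a description of letters and not of binding. The shares by call carry no test, and a part of E2F factors in the changes was not tested.

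Beyond the 10 members, lists of their partners and opponents were read in the same fit. Of 82 such genes 81 were tested, and 4 were higher and 8 lower. That is 14.8%, near the 12.4% of all tested rows, so the number of calls does not set the pooled lists apart. The calls were spread unevenly, with 6 of 18 among RBBP4 and RBBP7 partners and 1 of 21 in PRC1. They had a median log2 fold change of -0.04 beside -0.01 over all tested rows. None of 7 tested PRC2 accessory genes (median 0.14) passed limma's test, and 3 had an unadjusted p below 0.05. Of 21 genes of PRC1, the complex that ubiquitinates histone H2A, only Pcgf3 passed, at 20.9 and 20.9 FPKM in libraries labelled lnc-31 siRNA, against 17.9 and 17.9 FPKM in scrambled siRNA libraries (log2 fold change 0.21, limma adjusted p = 0.038). The row for Cbx6 names several genes. Of 5 genes that remove Polycomb marks, only Kdm6b rose, to 12.1 and 11.8 FPKM in libraries labelled lnc-31 siRNA, against 9.01 and 9.10 FPKM in scrambled siRNA libraries. Kdm6b encodes a demethylase of the mark that PRC2 writes (log2 fold change 0.37, limma adjusted p = 0.016).

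Cofactors of maintenance methylation numbered 10 tested genes, of which none rose and 2 fell (median -0.12). Among all tested rows 6.78% were called lower and 5.64% higher. Lig1, the ligase that joins fragments of the new strand, was at 26.9 and 27.0 FPKM in libraries labelled lnc-31 siRNA, against 33.4 and 36.0 FPKM in scrambled siRNA libraries (log2 fold change -0.35, limma adjusted p = 0.017). 2810417H13Rik, which encodes the PCNA clamp associated factor, was at 96.2 and 92.4 FPKM in libraries labelled lnc-31 siRNA, against 110.2 and 118 FPKM in scrambled siRNA libraries (-0.27, adjusted p = 0.028). None of 4 genes of DNA demethylation passed (median -0.05, none at an unadjusted p below 0.05) and none of 8 methyl-CpG readers (median -0.06, 1 at an unadjusted p below 0.05). Of 8 genes of the S-adenosylmethionine cycle, which supplies the methyl groups, 1 rose and 1 fell (median -0.13). Mtap, an enzyme of methionine salvage, was at 88.6 and 87.8 FPKM in libraries labelled lnc-31 siRNA, against 126 and 124 FPKM in scrambled siRNA libraries.

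RBBP4 and RBBP7 also belong to complexes outside PRC2, and 18 genes of these were tested. Of these 5 fell and 1 rose (median -0.06), where 6.78% of all tested rows were called lower and 5.64% higher. Both large subunits of CAF-1, which loads histones on replicated DNA, were lower, Chaf1a at 16.6 and 17.6 FPKM in libraries labelled lnc-31 siRNA, against 21.7 and 21.5 FPKM in scrambled siRNA libraries, and Chaf1b with a log2 fold change of -0.34 (limma adjusted p = 0.011). Hat1, the histone acetyltransferase that works with RBBP7, was at 70.6 and 71.7 FPKM in libraries labelled lnc-31 siRNA, against 87.7 and 88.3 FPKM in scrambled siRNA libraries (-0.30, adjusted p = 0.012). Lin52 and Lin54, which share the MuvB complex with RBBP4, also fell (-0.31, limma adjusted p = 0.037, and -0.23, adjusted p = 0.044), and Chd3 of the NuRD complex rose (0.19, adjusted p = 0.037). The MuvB genes Lin9 and Lin37 did not pass (log2 fold change -0.18 and -0.05). None of the other NuRD genes tested passed, and Chd4 lay lower (-0.10, limma adjusted p = 0.15). With lnc-31 siRNA 1, lnc-31 siRNA 2, scrambled siRNA 1 or scrambled siRNA 2 left out, 3, 4, 2 and 1 of the 81 genes of these lists passed, and of those named only Mtap did so each time. With a constant prior variance 7 passed, where 1080 of the 11500 tested rows did. Pcgf3, 2810417H13Rik, Chd3 and Lin54 did not pass then (limma adjusted p = 0.059, 0.058, 0.078 and 0.051). With no filter on low rows Lin54 did not pass either (limma adjusted p = 0.055). Under either other scaling (quantile or median of ratios) the calls included 1 PRC2 accessory gene, 2 of PRC1 and 5 of the S-adenosylmethionine cycle.

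**Figure D4:**
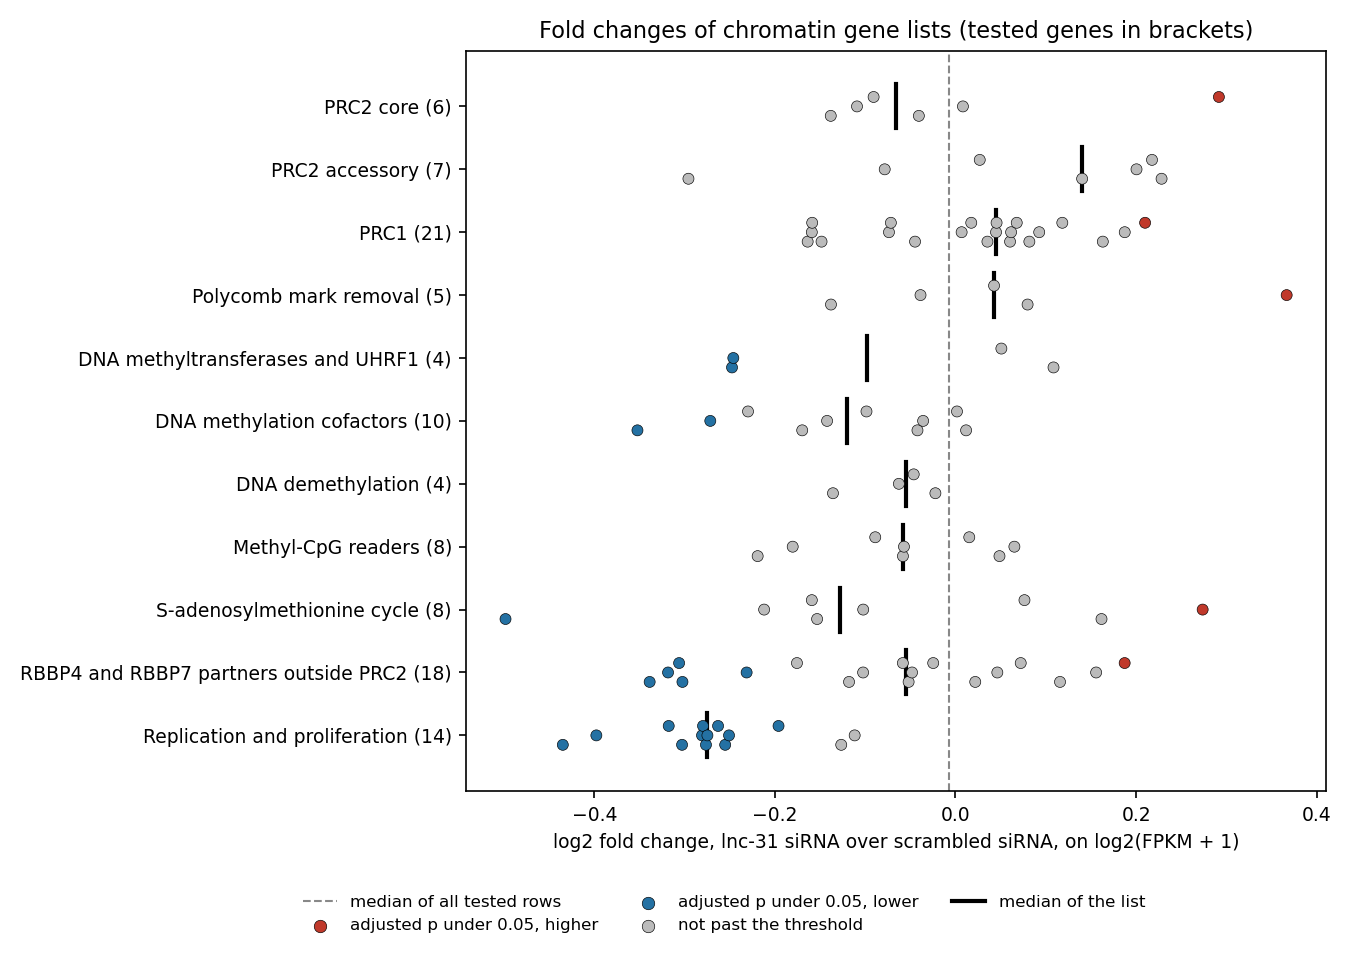
Each point is the limma log2 fold change of 1 tested gene on the log2(FPKM + 1) scale, libraries labelled lnc-31 siRNA over scrambled siRNA libraries, by list, with the list median as a black line and the median of all tested rows (-0.01) dashed. The replication list lies lowest (median -0.28, 12 of 14 lower), PRC2 core has 1 gene higher of 6, and the DNA methyltransferase list has 2 lower of 4. Among all tested rows 6.78% were called lower and 5.64% higher.

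Markers of cell state moved in the same libraries. Of 14 replication and proliferation genes 12 fell and none rose, with a median log2 fold change of -0.28, beside -0.25 for Dnmt1 and for Uhrf1. Their summed level was 1001 and 1026 FPKM in libraries labelled lnc-31 siRNA, against 1204 and 1196 FPKM in scrambled siRNA libraries. With lnc-31 siRNA 1, lnc-31 siRNA 2, scrambled siRNA 1 or scrambled siRNA 2 left out, 3, 3, 1 and 1 of them passed. All 5 muscle differentiation markers rose, with a summed level of 313 and 321 FPKM in libraries labelled lnc-31 siRNA, against 173 and 196 FPKM in scrambled siRNA libraries. Among all tested rows 6.78% were called lower and 5.64% higher. The replication and marker lists were chosen with earlier results of these data known, so their counts are a description only. The fibroblast markers with a row, 3 of 5 (2 of them higher by limma), summed to 63.3 and 64.1 FPKM in libraries labelled lnc-31 siRNA, against 50.8 and 51.9 FPKM in scrambled siRNA libraries. Of 4 osteoblast markers Runx2 and Sp7 had a row, and neither passed. Mean levels of Runx2 were 16.3 FPKM with lnc-31 siRNA and 17.0 FPKM with scrambled siRNA, and those of Sp7 were 3.62 and 4.29 FPKM. The part of these markers in the values of the 10 genes was not tested. In bulk RNA, fewer cells of a kind and less RNA per cell cannot be told apart.

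By the root mean square difference of row-centred log2(FPKM + 1) values over the 4 libraries, the rows most like Dnmt1 were Ublcp1 (0.0077), Vps13a (0.0085) and Suv39h2 (0.0096), the last a methyltransferase for lysine 9 of histone H3. Those most like Ezh2 were Nudt2 (0.0036), Cradd (0.0049) and Itsn2 (0.0053). With 4 libraries and 10299 candidate rows such closeness is a description only.

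The pull-down asked which RNAs the lnc-31 probes recovered and the lacZ probes did not. None of the 10 gene spans (RefSeq, GRCm38.p6, with the coordinates of mm10) held any of the 596 lnc-31 probe peaks. At least 1 such peak stood in 1.98% of 10868 tested genes with a span, so 0 of 10 is near the background. Of the 476 lacZ peaks, 1 lay in a member, in Ezh2 (chromosome 6, 47530274 to 47595270), at 47574401 to 47574600. At least 1 lacZ peak stood in 1.89% of tested genes. The peak in Ezh2 had a deposited value of 6.52e-05, the lowest of the lacZ list, a column read as the authors' p-value from its range alone, and no lnc-31 probe peak overlapped it. With 1 library per probe set there is no replicate check and no test, and the annotation used here gives no exons.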

How the data were processed

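The authors deposited FPKM values for 4 siRNA libraries, made with a stranded mRNA kit per the labels' protocols, and processed on mm10 with tools that included TopHat2, Cuffdiff, Bowtie2, BWA, Trimmomatic and CASAVA, per the submitters' processing notes. FPKM is not a count and depth is unknown, so no counting interval is given. The deposited peak lists carry a last column read as a p-value from its range, and none of the sources used here names their caller. The input library was not analysed here. Sample columns without a matching label numbered 0.

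Of 13376 rows, the 11500 whose mean reached 1 FPKM were put on the log2(FPKM + 1) scale, and groups were compared in R 4.3.3 with limma 3.58.1 (trended prior variance, two-sided, Benjamini-Hochberg adjustment over all tested rows, threshold 0.05), and the fit was tested on simulated data. This scale understates the change of low genes such as Dnmt3b. Merged rows were kept as deposited. Where 1 library is left out, the lone library of a group is assumed to vary like the other group. Paralog ratios were compared by an exact permutation test. Peaks were assigned to gene spans with an overlap of 1 base. Alternatives were pseudocounts of 0.1 and 0.5, a constant prior variance, median of ratios scaling or quantile normalization, no filter or a filter at 5 FPKM, a replicate block, and each library left out. Figures were drawn with matplotlib 3.10.9 in Python 3.11.15.

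The members and lists were chosen with earlier results of these data known. Named genes were the 10 members, up to 4 called genes per list by smallest p, and the 3 rows most like Ezh2 and Dnmt1. Lin52, Lin54, Lin9, Lin37, Chd4, Des and Myf5 were added after their values were seen. The values of 1 gene that the naming rule picked are not reported here.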

Additional observations from a re-analysis of the deposited data

How the results depend on the processing

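Ezh1, Dnmt1 and Uhrf1 passed under all 8 alternatives that kept the 4 libraries, pseudocount, filter, scaling, prior and block. Some of these passes lay close to the threshold. With a constant prior variance limma's adjusted p was 0.0453 for Dnmt1 and 0.0498 for Uhrf1, and with the replicate block it was 0.0451 for Ezh1. With 1 library left out, 0 of the 10 members passed (0 higher, 0 lower), and the count over all rows ran from 260 to 491 (132 to 266 higher, 97 to 242 lower), against 1429 with all 4 (649 higher, 780 lower). The pathway lists then had 1 to 4 calls and with a constant prior variance 7, against 12. The smaller fits have fewer samples. With 1 library left out, the log2 fold change of Rbbp4 ran from -0.023 to 0.039, that of Dnmt3a from -0.019 to 0.12, that of Ezh2 from -0.083 to 0.0016, and the difference in the log2 ratio of Dnmt3a over Dnmt3b from -0.348 to 0.080, so their directions turned. That alternative for the ratios was chosen after seeing the data. Quantile normalization and median of ratios scaling raised the count over all rows to 1928 and 1909 (947 and 921 higher, 981 and 988 lower) and both gave 18 calls in the pathway lists. The replicate block gave 1613 calls over all rows, 2 in PRC1 and 4 instead of 6 among RBBP4 and RBBP7 partners, where Lin52 and Lin54 no longer passed (limma adjusted p = 0.052 and 0.055), and it left the members' calls as they were. Same-numbered libraries did not deviate together (correlation -0.09), so they share only a number. Scaling moved the median of all rows by less than 0.1 on the log2 scale.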

Other observations

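Among 79 tested partner genes with a span, 2 held an lnc-31 probe peak and no lacZ peak. That is 2.53%, near the 1.98% of all tested genes with a span, and 27 of the 79 are on the PRC2 accessory and PRC1 lists. Mtf2, a PRC2 accessory subunit that binds unmethylated CpG-rich DNA, had 1 peak of 200 bases (chromosome 5, 108106601 to 108106800, mm10) with a deposited value of 0.0098. Phc3, a PRC1 subunit, had 1 of 200 bases (chromosome 3, 30937001 to 30937200) with a deposited value of 0.0035. Both values lay far above the lowest of the lnc-31 probe list (2.05e-07), so neither peak would be the strongest if the column holds p-values. Their ranks among the 596 peaks are not given here. Lcor, another PRC2 accessory gene, held 2 lacZ peaks and no lnc-31 probe peak. These genes were named after their values were seen. The pull-down has 1 library per probe set, and these differences have no replicate check.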
